A study of Homo sapiens with 18 samples.

Results

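The genes described here encode the subunits of oxidative phosphorylation that are made from nuclear DNA. They were taken as every array probe whose gene symbol begins with NDUFA, NDUFB, NDUFC, NDUFS, NDUFV, UQCR, COX4I, COX5, COX6, COX7, COX8 or ATP5, or is SDHA, SDHB, SDHC, SDHD or CYC1. Assembly factors whose symbols begin NDUFAF, NDUFA4L2 and pseudogenes were left out, and a probe had to be detected (detection p under 0.05) on at least 3 of 18 arrays. The rule found 105 probes of 78 genes, among 47303 probes on the array and 13680 genes tested. Of these genes, 35 belong to complex I, 3 to complex II, 9 to complex III, 13 to complex IV and 18 to complex V.

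The study asked how galectin-4, a secreted lectin encoded by LGALS4, alters gene expression in human prostate cancer cell lines, and measured total RNA on Illumina bead arrays. A pair of inducible lines was used, 22Rv1-tetO-Gal4 and LNCaP-tetO-Gal4, each with Dox (doxycycline, labelled as expressing galectin-4) and without it (labelled as control cells). A knockdown was made in 22Rv1-M4 cells, with M4-shGal4 set against the scramble control M4-shCtrl. Each of the 6 groups had 3 arrays, no group received Dox without the tetO-Gal4 construct, and the labels do not say whether each line is 1 clone or a pool. Nor do they call the replicates separate cultures. Each p-value thus rests on the spread among 3 arrays a group, part or all of which may be technical.

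The targeted gene was read first. LGALS4 did not pass the test in the arrays labelled 22Rv1 Dox, at 5.84 ± 0.16 on the log2 intensity scale with Dox and 5.90 ± 0.06 without (SD, n = 3 each, limma adjusted p = 0.874). In LNCaP it reached 6.49 ± 0.67 with Dox, and it was not detected on any array without Dox. It stood at 5.00 ± 0.29 in M4 shGal4 and at 12.44 ± 0.03 in M4 scramble cells (limma adjusted p = 5.17e-16). Every direction given for 22Rv1 with Dox therefore belongs to arrays labelled so, in which the transgene's own transcript was not seen to rise. On the 18 arrays, the mean intensity ran from 306 to 404, 41.9% to 45.1% of probes were detected, and arrays of a group correlated at 0.976 to 0.996. The third 22Rv1 Dox array stood apart from the others of its group in many members, and counts without it are given. Of 8 luminal prostate markers read here, 6 to 8 were detected on all 3 arrays of each group, but KLK3 was not detected in any 22Rv1 or M4 group. Of markers of other cell types, 0 of 2 basal ones, 2 or 3 of 5 stromal ones and 0 or 1 of 3 each of leukocytes and endothelium were detected on all 3 arrays of a group.

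Oxidative phosphorylation passes electrons from NADH through complex I, and from succinate through complex II, to ubiquinone, then through complex III and cytochrome c to complex IV, where oxygen is reduced. Complexes I, III and IV pump protons across the inner mitochondrial membrane, and complex V, the ATP synthase, uses their return to make ATP. All but complex II combine subunits encoded in mitochondrial DNA with the nuclear ones studied here, and the nuclear set is controlled in part by NRF1, by GABPA (also called NRF2 alpha) and by their coactivator PPARGC1A. Normal luminal prostate cells are known for a truncated citrate cycle that exports citrate, and prostate cancer cells for oxidising it again.

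Promoter sequence was available from RefSeq (GRCh38.p14) for 65 of the 78 genes, as a window of 250 bases before and 50 after the gene's start. The NRF1 motif, which is GCGCA, any base and GCGC, was searched, like the others, on both strands and lay in 15 of these windows (23.1%), against 8.58% of 15843 windows of protein-coding genes. The GABPA motif CCGGAAG lay in 19 (29.2%), against 14.2% of coding windows, and the YY1 motif AANATGGC lay in 19 (29.2%), against 7.92%. Less particular motifs were about as common in members as elsewhere: GGGCGG of SP1 in 60% against 58.5%, and CCAAT of NFY in 36.9% against 36.4%. The ESRRA motif TCAAGGTCA lay in 1 window.

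The stretches printed here lie upstream of the gene's start, read 5′ to 3′ along the gene's strand, and carry the motif in capitals. They are shown because each gene was called in at least 1 of the treatment comparisons, and together they cover complexes I, II, IV and V. The first set holds NRF1 matches: ATP5F1C (chr10:7788117-7788176, plus strand), ATP5PO (chr21:33915805-33915864, minus strand), SDHD (chr11:112086738-112086797, plus strand), NDUFA9 (chr12:4649009-4649068, plus strand) and SDHA (chr5:218149-218315, plus strand), which holds 4 matches. Counting the base before the start as -1, the first base of the motif is at -22 in ATP5F1C, -24 in ATP5PO, -110 in SDHD, -80 in NDUFA9 and, for the most upstream match, -166 in SDHA.
ATP5F1C: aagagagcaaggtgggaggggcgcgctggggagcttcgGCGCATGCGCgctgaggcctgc
ATP5PO: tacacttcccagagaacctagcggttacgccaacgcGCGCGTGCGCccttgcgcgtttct
SDHD: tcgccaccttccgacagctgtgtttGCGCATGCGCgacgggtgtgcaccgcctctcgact
NDUFA9: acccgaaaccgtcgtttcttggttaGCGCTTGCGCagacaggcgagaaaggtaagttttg
SDHA: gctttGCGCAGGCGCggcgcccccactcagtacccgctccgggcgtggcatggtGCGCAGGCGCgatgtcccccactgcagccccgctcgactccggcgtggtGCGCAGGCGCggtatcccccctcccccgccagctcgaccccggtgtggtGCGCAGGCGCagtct

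The second set holds GABPA matches in 3 genes of complex IV, in which no window held the NRF1 motif (0 of 12): COX5B (chr2:97645999-97646058), COX6A1 (chr12:120438053-120438112) and COX8A (chr11:63974560-63974619), all on the plus strand. Their motifs begin at -37, -16 and -18.
COX5B: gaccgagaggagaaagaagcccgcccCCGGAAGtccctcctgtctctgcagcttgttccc
COX6A1: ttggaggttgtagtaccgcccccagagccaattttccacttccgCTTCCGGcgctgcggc
COX8A: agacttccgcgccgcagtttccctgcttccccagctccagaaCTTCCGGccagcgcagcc

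Each set joins genes called in opposite directions with Dox. In LNCaP, the NRF1 motif lay in 5 of 23 windows of members called higher, 3 of 10 of members called lower and 7 of 32 of members not called. For the GABPA motif these counts were 7 of 23, 2 of 10 and 10 of 32.

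**Figure D1:**
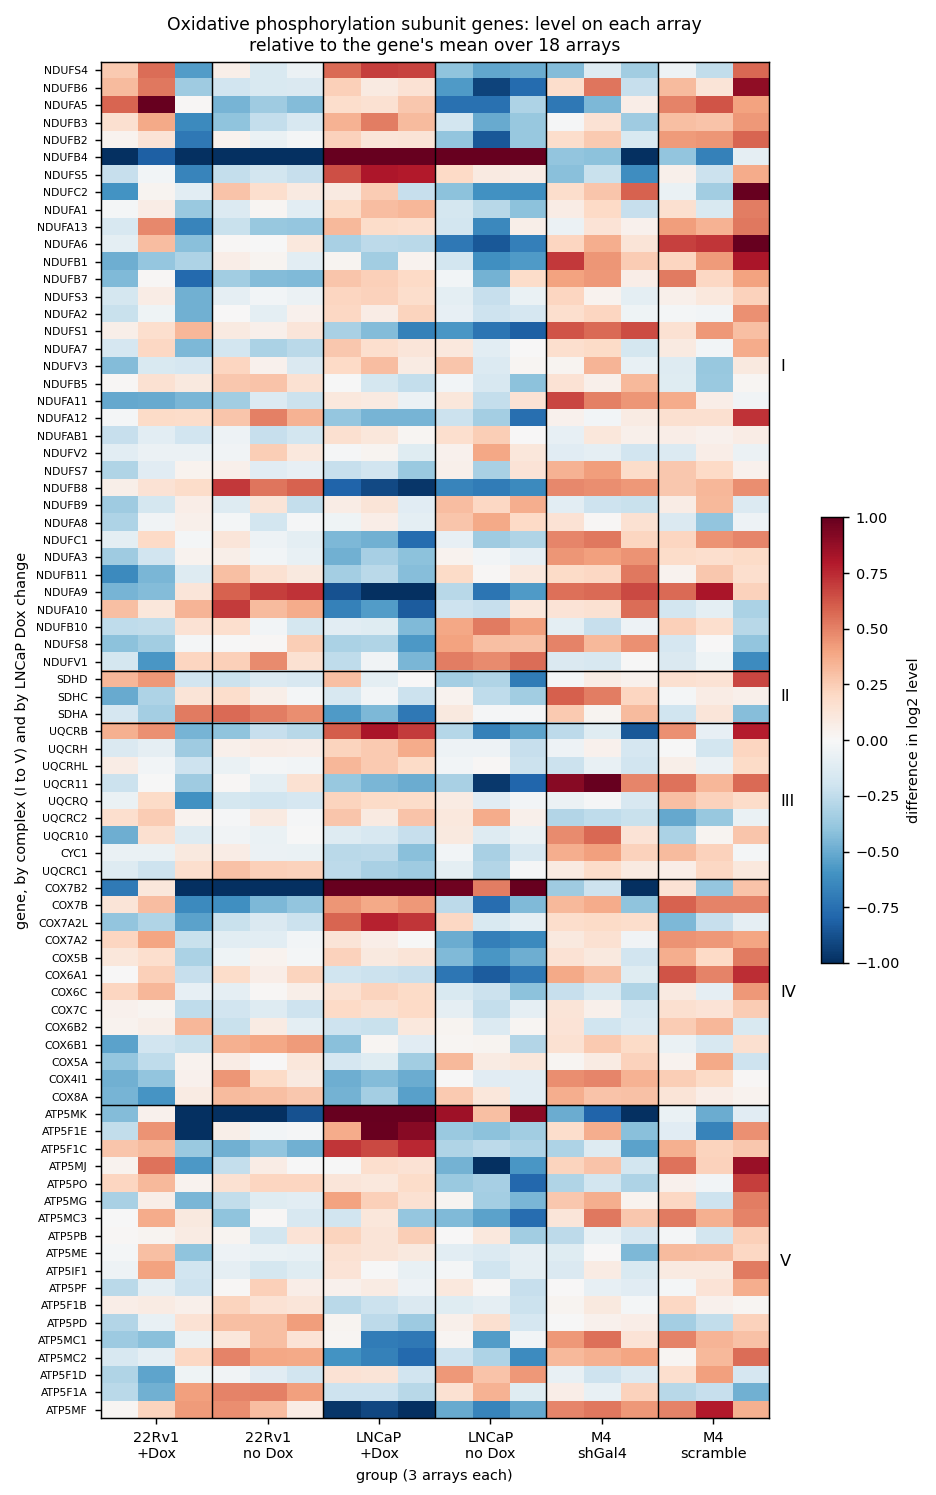
Log2 intensity of the 78 subunit genes (rows, by complex, ordered within each complex by the LNCaP Dox change) on the 18 arrays (columns, by group), as the difference from the gene's mean over all arrays, with colours capped at 1 either way. Within a complex some rows are high and others low in the LNCaP Dox columns, and the third 22Rv1 Dox array differs in colour from the other arrays of its group.

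Averaged over all 78 genes, the log2 level was 10.76 ± 0.05 in LNCaP with Dox and 10.57 ± 0.09 in LNCaP without. It was 10.61 ± 0.12 in 22Rv1 with Dox and 10.70 ± 0.01 in 22Rv1 without, a difference of -0.08 that turned to 0.12 when arrays were scaled to the median of detected probes instead of by quantiles. It was 10.80 ± 0.09 in M4 shGal4 and 10.89 ± 0.08 in M4 scramble (SD, n = 3 each). These means join genes of a complex that were called in opposite directions. In such bulk RNA, fewer cells with a transcript and less of it per cell cannot be told apart.

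In LNCaP, 39 of the 78 subunit genes were called with Dox, against 12 each in 22Rv1 with Dox and in the knockdown, where 27.8%, 24.8% and 23.3% of all genes were called. Of the 39, 28 were called higher, where 10.9% of all genes tested were, and 11 were called lower, where 17% of all genes were. A call here means that limma's p, after Benjamini-Hochberg adjustment over the 13680 genes, was under 0.05. The median change was 0.20 on the log2 scale, against -0.08 over all genes. Among the 1439 genes at or above the members' lower quartile of mean level, 18.1% were called higher and 27.7% lower. All Dox arrays lay above all others in 37 members and below them in 20, against 16.2% and 27.8% of all genes. The rises included 9 accessory subunits of complex I and 8 subunits of complex IV. The falls were the catalytic subunits NDUFV1, NDUFS8 and SDHA, 5 accessory subunits of complex I, 2 subunits of complex IV and 1 of complex V. The count called lower was 5 without LNCaP Dox replicate 3 and also without LNCaP no Dox replicate 1 (10.2% and 13.2% of all genes). It was also 5 with median scaling and 6 with arrays scaled to the median of detected probes, where 11.2% and 12.6% were. With any 1 array left out 21 of the 39 calls were kept every time.

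**Figure D2:**
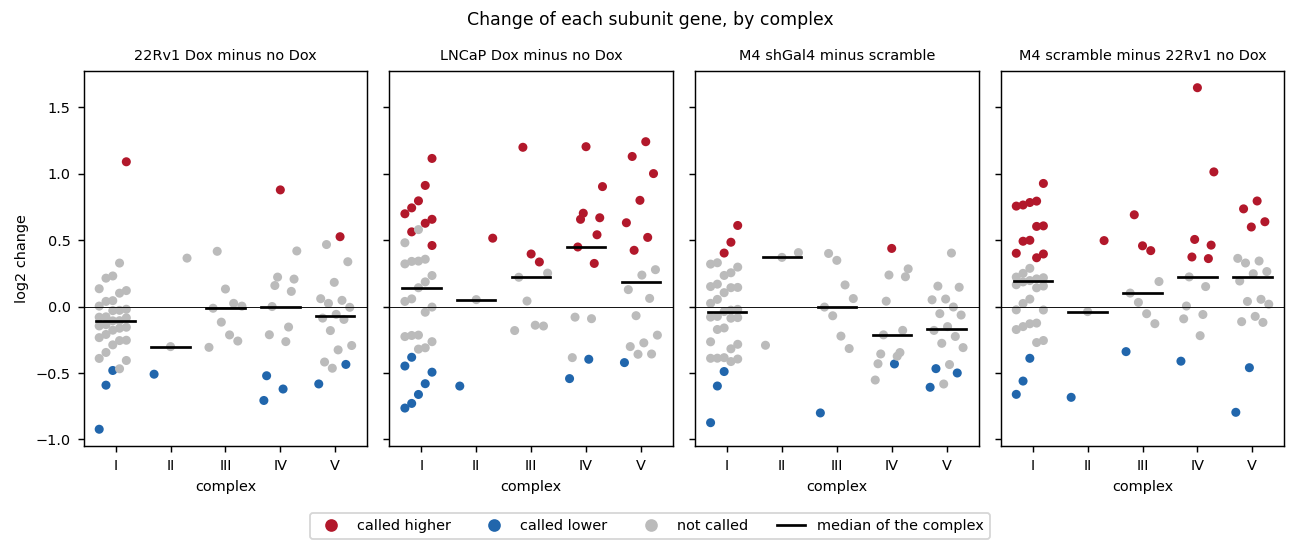
Log2 change of each of the 78 subunit genes (points), grouped by complex along the horizontal axis, in 4 comparisons (panels), with called genes coloured by direction and the complex's median as a line. In LNCaP with Dox, 8 of 13 complex IV genes were called higher, where 10.9% of all genes tested were. In the knockdown 8 of 78 genes (10.3%) were called lower, the same share as among all genes tested (10.3%).

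Complex I, which takes electrons from NADH, held both directions in LNCaP with Dox: 9 of its 35 genes were called higher and 7 lower. All 9 rises were among its 29 accessory subunits, which surround the catalytic core and are needed to assemble it. NDUFS4, an accessory subunit of the NADH-oxidising end whose loss causes Leigh syndrome, was measured at 11.92, 12.05 and 12.03 with Dox, against 10.95, 10.84 and 10.86 without. The groups did not overlap, and the change was 1.12 ± 0.22 (SE, limma adjusted p = 0.00108). NDUFB6 and NDUFB3, of the membrane arm, rose by 0.91 and 0.74. NDUFA5, of the peripheral arm, stood at 7.91, 7.89 and 8.00 with Dox, against 6.99, 6.99 and 7.42 without, a rise of 0.80 ± 0.24 (SE, limma adjusted p = 0.0181). Here too the groups were apart, with the third array without Dox the highest of its group.

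Of the 6 core subunits of complex I on the array, 2 were called lower in LNCaP with Dox and 0 higher. NDUFV1, which binds NADH and the flavin that first takes its electrons, was measured at 9.79, 10.01 and 9.59 with Dox, against 10.56, 10.52 and 10.61 without. NDUFS8, which carries iron-sulphur clusters toward ubiquinone, stood at 11.45, 11.47 and 11.20 with Dox, against 12.17, 12.07 and 12.06 without. In both genes all 3 Dox arrays lay below all 3 others, and the changes were -0.76 ± 0.18 and -0.73 ± 0.14 (SE, limma adjusted p = 0.00371 and 0.000925). The 5 accessory subunits called lower were NDUFB10, NDUFA10, NDUFA9, NDUFB11 and NDUFA3, with changes of -0.66, -0.58, -0.49, -0.45 and -0.38. The core subunits NDUFS1, NDUFS3, NDUFS7 and NDUFV2 were not called, with changes of 0.23, 0.34, -0.22 and -0.21.

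Complex II, succinate dehydrogenase, is also an enzyme of the citrate cycle, and its measured subunits parted in LNCaP with Dox. SDHA, the flavoprotein that oxidises succinate, was measured at 8.39, 8.51 and 8.24 with Dox, against 9.05, 8.94 and 8.94 without, a fall of -0.60 ± 0.18 (SE, limma adjusted p = 0.0158). SDHD, a membrane anchor, stood at 9.98, 9.59 and 9.69 with Dox, against 9.35, 9.38 and 8.99 without, a rise of 0.52 ± 0.17 (SE, limma adjusted p = 0.0287). Neither gene's groups overlapped. The other anchor, SDHC, changed by 0.05 on its brighter probe and by -0.44 on its dimmer one (limma adjusted p = 0.0106 with each probe tested as its own feature), so its probes disagree. The iron-sulphur subunit SDHB was not analysed here.

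In complex III, which passes electrons from ubiquinol to cytochrome c, 3 of 9 genes were called higher in LNCaP with Dox and 0 lower. UQCRB, a small subunit close to a ubiquinone site, was measured at 11.89, 12.10 and 11.99 with Dox, against 11.00, 10.62 and 10.76 without, and rose by 1.20 ± 0.23 (SE, limma adjusted p = 0.00095). The hinge protein gene UQCRH rose by 0.40, and UQCRHL, a near-identical copy whose probe may read UQCRH transcripts as well, by 0.34. The pseudogene UQCRBP1, left out of the set, rose by 0.80 on its own probe, so part of the UQCRB signal may be shared with it. The core proteins UQCRC1 and UQCRC2 and the haem protein CYC1 were not called, with changes of -0.18, 0.04 and -0.15.

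Complex IV, cytochrome c oxidase, had the largest share of calls in LNCaP with Dox: 8 of 13 genes were called higher and 2 lower, with a median change of 0.45. Its mean level was 11.61 ± 0.02 with Dox and 11.30 ± 0.10 without (SD, n = 3 each). COX7A2L, which joins complexes III and IV in supercomplexes, was measured at 10.34, 10.53 and 10.47 with Dox, against 9.97, 9.60 and 9.66 without. It rose by 0.70 ± 0.13 (SE, limma adjusted p = 0.000678), with no overlap between groups. COX7B2, a relative of COX7B known for expression in testis, stood at 9.63, 9.62 and 9.48 with Dox, against 8.49, 8.03 and 8.60 without, a rise of 1.20 ± 0.30 (SE, limma adjusted p = 0.00555). COX7B rose by 0.90, COX7A2 by 0.67, COX5B by 0.66, COX6A1 by 0.54, COX6C by 0.45 and COX7C by 0.33. COX8A and COX4I1, the ubiquitous forms of subunits 8 and 4, were called lower, with changes of -0.54 and -0.40.

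In complex V, 7 of 18 genes were called higher in LNCaP with Dox and 1 lower. ATP5F1C, the gamma subunit that turns inside the catalytic head, was measured at 11.97, 11.91 and 12.01 with Dox, against 10.95, 10.99 and 10.94 without. The groups did not overlap, and the rise of 1.00 ± 0.15 (SE, limma adjusted p = 0.000152) was the only call of the 39 kept under every alternative processing tried. Among these was a covariate described below, the arrays' position on the within-group axis, with which 1.24% of all genes were called higher and 0.541% lower. With any 1 array left out, 21 of the 39 were kept. ATP5MK, a small membrane subunit at the interface of ATP synthase dimers, stood at 8.15, 7.88 and 7.98 with Dox, against 6.93, 6.38 and 6.97 without, a rise of 1.24 ± 0.24 (SE, limma adjusted p = 0.00112). ATP5F1E, the epsilon subunit, stood at 11.41, 12.03 and 11.96 with Dox, against 10.68, 10.63 and 10.70 without, a rise of 1.13 ± 0.30 (SE, limma adjusted p = 0.0086). The groups of both genes were apart. ATP5MJ and ATP5MG, also of the membrane part, rose by 0.80 and 0.52, ATP5PO of the peripheral stalk by 0.63, and ATP5MC3 of the c ring by 0.42.

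The subunits that carry the catalytic sites of complex V did not share these rises. ATP5F1B, the beta subunit, stood at 13.51, 13.56 and 13.63 with Dox, against 13.66, 13.68 and 13.56 without, and its groups overlapped (change -0.07, limma adjusted p = 0.7). ATP5F1A, the alpha subunit, changed by -0.36 (limma adjusted p = 0.13). ATP5MF of the membrane part was the gene called lower, with a change of -0.42. ATP5IF1, which inhibits the enzyme when it runs backwards, changed by 0.13 (limma adjusted p = 0.59).

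**Figure D3:**
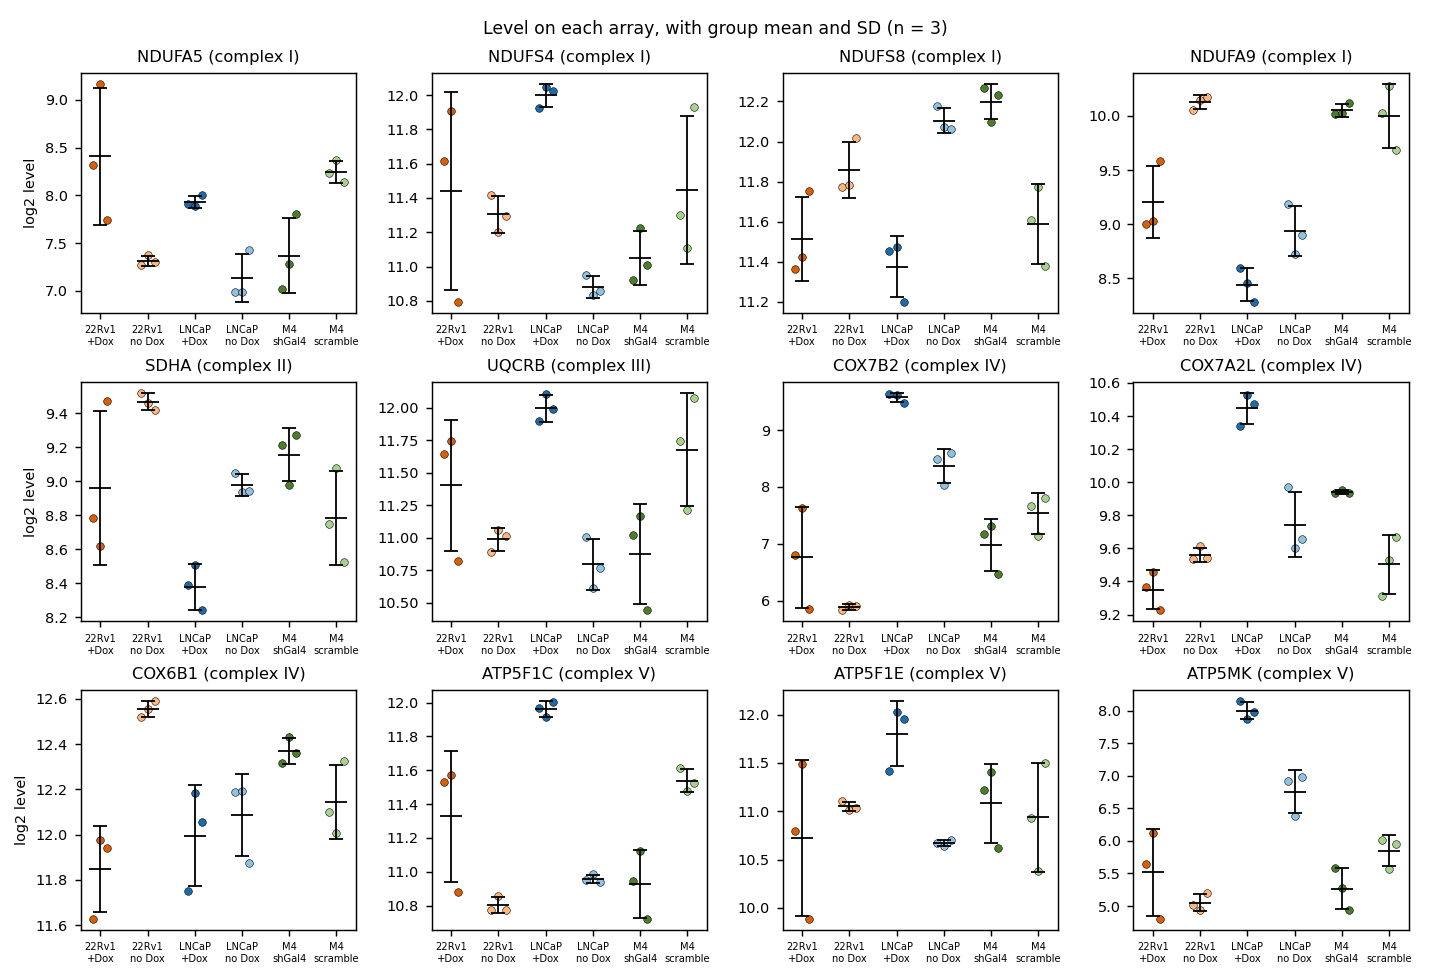
Log2 intensity of 12 subunit genes on each of the 18 arrays (points) by group along the horizontal axis, with each group's mean and SD as bars (n = 3 each). ATP5F1C lies at 11.91 to 12.01 on the 3 LNCaP Dox arrays and at 10.94 to 10.99 on the 3 without Dox, while NDUFS8, SDHA and NDUFA9 are lower with Dox in LNCaP.

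In the arrays labelled 22Rv1 Dox, 3 subunit genes were called higher, where 9.14% of all genes were, and 9 lower, where 15.7% of all genes were. Over all genes, 36.8% of the calls were higher, against 26% with median scaling and 47.4% with arrays scaled to the median of detected probes. The members' median change was -0.09, against -0.06 over all genes, and it turned to 0.12 under the scaling over detected probes. The 9 members called lower became 5 with median scaling and 1 over detected probes, while 3 were called higher under both. Of all genes, 16.4% and 11.2% were called lower under these scalings, and 5.77% and 10.1% higher. Among genes at or above the members' lower quartile of level, 12% were called higher and 21.8% lower. All Dox arrays lay above the others in 2 members and below them in 22, against 13.9% and 25% of all genes. NDUFA5 was measured at 8.31, 9.16 and 7.75 with Dox, against 7.27, 7.38 and 7.30 without, and rose by 1.09 ± 0.24 (SE, limma adjusted p = 0.00207). All 3 Dox arrays were above the others, but they spread widely, with the second the highest. ATP5F1C stood at 11.53, 11.57 and 10.88 with Dox, against 10.77, 10.86 and 10.77 without, a rise of 0.53 ± 0.15 (SE, limma adjusted p = 0.0136). The third of these Dox arrays was close to those without Dox. COX7B2, the third gene, stood at 6.81, 7.63 and 5.85 with Dox, against 5.83, 5.92 and 5.91 without, and its groups overlapped.

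The 9 genes called lower in 22Rv1 with Dox came from complexes I, II, IV and V. NDUFA9, which lies near the ubiquinone site of complex I, was measured at 9.00, 9.03 and 9.58 with Dox, against 10.05, 10.15 and 10.18 without, a change of -0.92 ± 0.17 (SE, limma adjusted p = 0.000372). COX6B1, which faces the intermembrane space, stood at 11.63, 11.97 and 11.94 with Dox, against 12.52, 12.56 and 12.59 without, a change of -0.71 ± 0.14 (SE, limma adjusted p = 0.000851). In both, every Dox array was below every other. COX8A, NDUFB11, ATP5F1A, COX4I1, NDUFB8 and ATP5MC2 changed by -0.62, -0.59, -0.58, -0.52, -0.48 and -0.44. SDHA changed by -0.51 (limma adjusted p = 0.0399), with 8.79, 8.62 and 9.47 with Dox, against 9.52, 9.46 and 9.42 without, so that the third Dox array fell among those without.

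The third 22Rv1 Dox array stood apart in many members. Without it, 10 genes were called higher and 15 lower, where 11.6% and 19.4% of all genes were. Without the first or the second Dox array 1 gene was called higher, and without Dox replicate 1 or no Dox replicate 1 there were 5 called lower. The calls of COX6B1, COX8A, NDUFA5, NDUFA9, NDUFB11 and NDUFB8 were kept with any 1 array left out.

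The difference between the Dox responses of the lines was tested as the 22Rv1 change minus the LNCaP change. Of the 78 genes, 11 were called lower in this difference, where 9.39% of all genes were, and 0 higher, where 9.42% of all genes were. Among genes at or above the members' lower quartile of level these shares were 11.9% and 12%. These calls varied with the scaling: 4 members were called lower with median scaling, where 7.98% of all genes were. Over detected probes 1 was called lower and 1 higher, where 6.49% and 8.72% of all genes were. COX7A2L showed a difference of -0.92 ± 0.18 (SE, limma adjusted p = 0.00111): it changed by -0.21 in 22Rv1, at 9.37, 9.46 and 9.22 with Dox, against 9.53, 9.61 and 9.54 without, beside its rise of 0.70 in LNCaP. ATP5F1E showed a difference of -1.46 ± 0.42 (SE, limma adjusted p = 0.0199), from a 22Rv1 change of -0.33. Its 22Rv1 Dox arrays stood at 10.80, 11.49 and 9.88, on both sides of the 11.10, 11.01 and 11.03 without Dox. NDUFS4 and NDUFC2 showed differences of -0.98 and -0.99, the latter on a dim probe.

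By complex, the 11 genes were 5 of complex I, 1 of complex III, 4 of complex IV and 1 of complex V. This count varied with the array left out. Without each 22Rv1 no Dox array in turn it was 5, 6 and 7, where 7.08%, 6.87% and 7.09% of all genes were called lower. It was 23 without 22Rv1 Dox replicate 2 and 4 without replicate 3, and 6 without LNCaP Dox replicate 2 or 3, 6 without LNCaP no Dox replicate 2 and 7 without replicate 3. COX7A2L and UQCRH kept their calls with any 1 array left out.

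In the knockdown, 4 subunit genes were called higher in M4 shGal4 than in M4 scramble cells, where 13% of all genes were, and 8 lower, where 10.3% of all genes were. The median change was -0.07, against 0.02 over all genes. Among genes at or above the members' lower quartile of level, 14.4% were called higher and 7.37% lower. All M4 shGal4 arrays lay above the M4 scramble arrays in 12 members and below them in 21, against 21.4% and 15.9% of all genes. Among the genes called lower, ATP5F1C was measured at 10.95, 11.12 and 10.72 in M4 shGal4, against 11.61, 11.48 and 11.53 in M4 scramble, a change of -0.61 ± 0.15 (SE, limma adjusted p = 0.00559). NDUFA6, a complex I subunit that binds the mitochondrial acyl carrier protein, stood at 9.77, 9.92 and 9.69 in M4 shGal4, against 10.24, 10.28 and 10.66 in M4 scramble, a change of -0.60 ± 0.15 (SE, limma adjusted p = 0.00715). Neither gene's groups overlapped, and both calls were kept under every alternative tried.

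NDUFA5 stood at 7.02, 7.29 and 7.80 in M4 shGal4, against 8.23, 8.36 and 8.14 in M4 scramble, and changed by -0.87 ± 0.24 (SE, limma adjusted p = 0.0115). UQCRB stood at 11.02, 11.17 and 10.44 in M4 shGal4, against 11.75, 11.21 and 12.08 in M4 scramble, and changed by -0.80 ± 0.23 (SE, limma adjusted p = 0.0139). The groups were apart in both genes, though in UQCRB only narrowly. ATP5PO, NDUFS5, ATP5ME and COX6A1 changed by -0.50, -0.49, -0.47 and -0.43. Without M4 shGal4 replicate 3 the count called lower was 3, where 9.77% of all genes were. It was 5 without M4 shGal4 replicate 1, M4 scramble replicate 1 or M4 scramble replicate 3, where 7.45%, 8.01% and 10.4% were.

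The genes called higher in the knockdown were NDUFS8, NDUFA10, COX7A2L and NDUFA11. NDUFS8 stood at 12.27, 12.10 and 12.23 in M4 shGal4, against 11.61, 11.77 and 11.38 in M4 scramble, and rose by 0.61 ± 0.14 (SE, limma adjusted p = 0.00254). COX7A2L stood at 9.93, 9.95 and 9.94 in M4 shGal4, against 9.31, 9.53 and 9.67 in M4 scramble, a rise of 0.44 ± 0.13 (SE, limma adjusted p = 0.0158). All M4 shGal4 arrays were above all M4 scramble arrays in both genes. NDUFA10 and NDUFA11 rose by 0.48 and 0.40. Under median scaling between arrays none of the 4 was called (0), while over all genes the share of calls that were higher was 55.7% by quantiles and 38.3% by median scaling.

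The Dox comparisons and the knockdown use separate arrays, so their calls can be set side by side. Called higher with Dox in both lines were ATP5F1C, COX7B2 and NDUFA5, which are 3 of the 3 called higher in 22Rv1 and 3 of the 28 called higher in LNCaP. Called lower in both were COX4I1, COX8A, NDUFA9, NDUFB11 and SDHA, 5 of 9 and 5 of 11, and 0 genes were called in opposite directions. Over all genes, 16.2% of those called higher in 22Rv1 were also called higher in LNCaP, and 27.3% of those called lower were also called lower. Of all genes called higher or lower in LNCaP, 13.6% and 25.2% had the same call in 22Rv1. Opposite calls in LNCaP fell on 17.5% of all genes called higher in 22Rv1 and on 3.78% of those called lower. With 3 and 9 members called in 22Rv1, the 0 therefore says little about the members. Called higher with Dox in LNCaP and lower in the knockdown were ATP5F1C, ATP5PO, COX6A1, NDUFA5, NDUFA6, NDUFS5 and UQCRB, which are 7 of the 28 and 7 of the 8 (25% and 87.5%). Over all genes, the genes with both calls were 19.1% of those called higher in LNCaP and 20.1% of those called lower in the knockdown. The 87.5% and 20.1% have unlike bases, since 35.9% of members but 10.9% of all genes were called higher in LNCaP. All of these 7 genes but ATP5PO also had a weight above percentile 90 of all genes on the within-group axis described below. NDUFA10 and NDUFS8 were called lower with Dox in LNCaP and higher in the knockdown (2 of 11 and 2 of 4, against 22.9% and 29.8% over all genes), and COX7A2L was called higher in both. ATP5F1C and NDUFA5 were called in all 3 treatments, higher with Dox and lower in the knockdown, and 33 members in none of the 3. No test of these overlaps was made, and the 22Rv1 entries come from arrays in which LGALS4 did not rise.

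Setting M4 scramble against 22Rv1 without Dox, 26 subunit genes were called higher in M4, where 14.7% of all genes were, and 8 lower, where 20.7% of all genes were. Among genes at or above the members' lower quartile of level these shares were 20.8% and 24%. The arrays did not overlap in 32 members higher and 11 lower, against 20.6% and 29.2% of all genes. This contrast shares the M4 scramble arrays with the knockdown and the 22Rv1 no Dox arrays with the 22Rv1 Dox comparison. Its groups differ at once in cells, in construct (M4-shCtrl against 22Rv1-tetO-Gal4) and in LGALS4 level, and these cannot be told apart. COX7B2 was measured at 7.67, 7.13 and 7.80 in M4 scramble, against 5.83, 5.92 and 5.91 in 22Rv1 without Dox, a difference of 1.65 ± 0.30 (SE, limma adjusted p = 0.000226). COX7B stood at 12.89, 12.80 and 12.79 in M4 scramble, against 11.68, 11.85 and 11.90 in 22Rv1 without Dox, a difference of 1.01 ± 0.21 (SE, limma adjusted p = 0.000749). The groups did not overlap in either gene. NDUFA5, ATP5MK, NDUFA6, NDUFB7, NDUFB4 (on its brightest probe) and NDUFA13, the last also known as GRIM19, were higher by 0.93, 0.80, 0.79, 0.78, 0.77 and 0.76.

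Lower in M4 scramble than in 22Rv1 without Dox were ATP5F1A at -0.80, SDHA at -0.68, NDUFA10 at -0.66 and NDUFV1 at -0.56, with ATP5PD, COX6B1, NDUFB5 and UQCRC2 between -0.46 and -0.34. Complex IV had a mean level of 11.63 ± 0.04 in M4 scramble and 11.33 ± 0.02 in 22Rv1 without Dox (SD, n = 3 each). The count called higher was 14 without any 1 of the 22Rv1 no Dox arrays, where 11.7% to 11.9% of all genes were. It was 17 without M4 scramble replicate 1 and 12 without replicate 3, where 12.2% and 13% were. It was 38 with median scaling and 45 with arrays scaled to the median of detected probes, where 12.6% and 18% were. Over detected probes, 54.1% of the calls among all genes were higher, instead of 41.6%. The count called lower was 4, 3 and 5 without each 22Rv1 no Dox array in turn, where 16.8%, 17% and 16.9% of all genes were. It was 5 without M4 scramble replicate 1 and 4 without replicate 2, where 18.2% and 19.7% were. It was 2 with median scaling and 3 over detected probes, where 17.1% and 15.3% were. With the arrays' position on the within-group axis as a covariate 3 members were called each way, where 8.03% of all genes were higher and 10.7% lower.

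Between the untreated lines, 8 subunit genes were called higher in LNCaP than in 22Rv1, both without Dox, where 23.7% of all genes were, and 24 lower, where 26.6% of all genes were. Among genes at or above the members' lower quartile of level these shares were 23.6% and 30%. The arrays did not overlap in 14 members higher and 36 lower, against 28.7% and 32.9% of all genes. This contrast shares arrays with both Dox comparisons. NDUFB8, a membrane-arm subunit of complex I that is lost when the complex fails to assemble, was measured at 11.07, 11.03 and 11.09 in LNCaP, against 12.43, 12.27 and 12.31 in 22Rv1, a difference of -1.28 ± 0.11 (SE, limma adjusted p = 2.57e-09). NDUFA9 differed by -1.19 ± 0.17 (SE, limma adjusted p = 3.94e-06) and COX6A1 by -0.91 ± 0.14 (SE, limma adjusted p = 1.32e-05), and in all 3 genes no array of 1 line reached the other. ATP5MF, NDUFA12 and ATP5MC2 differed by -0.84, -0.81 and -0.80.

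COX7B2 stood at 8.49, 8.03 and 8.60 in LNCaP without Dox, against 5.83, 5.92 and 5.91 in 22Rv1 without Dox, a difference of 2.49 ± 0.30 (SE, limma adjusted p = 4.13e-07). ATP5MK differed by 1.71 ± 0.24 (SE, limma adjusted p = 4.02e-06). In neither gene did the lines overlap. NDUFB4 differed by 2.53 on its brightest probe, but by 0.55 and -0.05 on its other probes, so its size depends on the probe. The count called higher was 5 without 22Rv1 no Dox replicate 3 or LNCaP no Dox replicate 1, where 21% and 21.7% of all genes were. Scaled over detected probes, 10 members were called higher and 11 lower, where 26.5% and 22.6% of all genes were. There the members' median difference turned to 0.03, from -0.16 by quantiles.

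The levels of many members also moved together between arrays of the same group, most widely in 22Rv1 with Dox and in M4 scramble. The first principal component of what remains on the arrays after each gene's group means are taken away held 24.8% of that variation over 13680 genes. Of the 78 members, 28 had a loading (their weight on this axis) above percentile 90 of all genes, and 56 were above percentile 50. The 28 include UQCRB, NDUFS4, ATP5F1C, ATP5F1E, COX7B and COX7B2. The 22 members below percentile 50 include SDHA, NDUFV1, NDUFS8, ATP5F1A, COX8A and NDUFA9.

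The loadings were set beside the treatment changes. In LNCaP with Dox, 21 of the 28 members with high loadings were called higher and 0 lower, while of the 22 with low loadings 0 were called higher and 11 lower. Of all genes, 10.9% were called higher and 17% lower. Their shares within the same ranges of loading are not given here, so these counts do not set the members apart from other genes of like loading. Over the 78 members, loading and LNCaP Dox change correlated at 0.90, against 0.66 over all 13680 genes. This describes these libraries, since the axis was taken from all 18 arrays, the LNCaP ones included, and genes are not independent. In 22Rv1 with Dox the correlation was 0.60 over members and 0.23 over all genes, and in the knockdown -0.60 and -0.24.

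Each array's position on the axis, projected from all genes, was 24.5 to 26.7 on the LNCaP Dox arrays, against -14.5 to -3.35 on the arrays without Dox. It was -30.3 to 18.2 on the 22Rv1 Dox arrays, against -19.7 to -17.4 without Dox. It was -13.2 to 2.23 in M4 shGal4 and -3.21 to 27.5 in M4 scramble. With this position as a covariate, 1 member (ATP5F1C, at 0.64) was called higher in LNCaP with Dox and 0 lower, where 1.24% and 0.541% of all genes were. In M4 scramble against 22Rv1 without Dox, 3 were called higher and 3 lower with it, where 8.03% and 10.7% of all genes were. Position and group largely coincide in LNCaP, so their parts in these changes cannot be told apart.

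**Figure D4:**
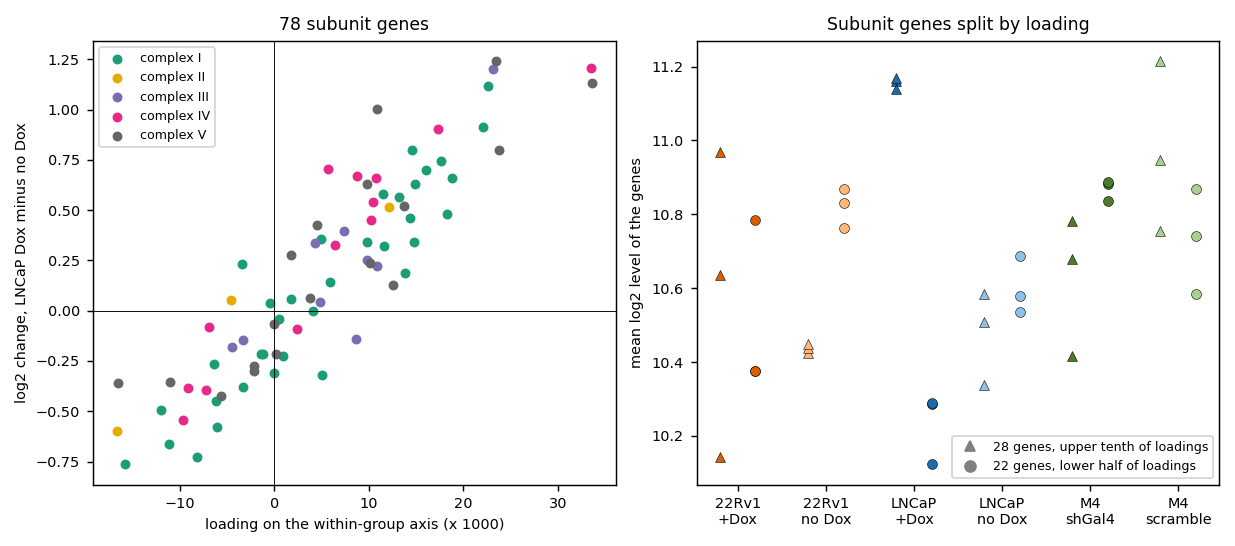
Left, loading on the within-group axis (times 1000) against the log2 change in LNCaP with Dox for the 78 genes (points). Right, mean log2 level on each array of the 28 genes with loadings above percentile 90 (triangles) and of the 22 below percentile 50 (circles). The third 22Rv1 Dox array has a mean of 10.14 for the 28 genes, below the 10.64 and 10.97 of the other Dox arrays.

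Several subunits have forms tied to a tissue or condition. COX4I2, COX6A2, COX7A1 and COX8C, the forms known from lung, muscle, heart and testis, had no probe past the detection filter, so COX4I1, COX6A1, COX7A2 and COX8A were the measured forms of these subunits. NDUFS6 had none either. COX6B2, the testis form of COX6B1, was detected on 1 array of 22Rv1 with Dox and on 2 of M4 scramble, and on 0 in the other groups, so it has no measured change. Among the c-ring genes, which encode the same mature protein, ATP5MC3 was called higher in LNCaP with Dox (0.42) while ATP5MC1 and ATP5MC2 changed by -0.27 and -0.30 without a call. ATP5MC3 was detected on 2 of the 3 LNCaP arrays without Dox. In 22Rv1 with Dox, ATP5MC2 was called lower (-0.44).

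Most genes were read by 1 probe (57 of 78). For the 39 members called in LNCaP with Dox there were 11 other probes, of which 10 changed in the same direction and 5 were called themselves. Disagreements touched ATP5MG in 22Rv1 with Dox (-0.09 on the brighter probe and 0.62 on the other, limma adjusted p = 0.0321) and ATP5MC1 between the untreated lines (-0.37 and 0.73). NDUFB4 in LNCaP with Dox changed by 0.66 on its brightest probe and by 0.30 and -0.01 on the others.

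Genes around the complexes were counted in lists by function. Each count stands against the shares of all genes called higher and lower, which were 10.9% and 17% in LNCaP with Dox, 9.14% and 15.7% in 22Rv1 with Dox, and 13% and 10.3% in the knockdown. Of 16 complex I assembly factors, 7 were called higher and 4 lower in LNCaP with Dox, led by NDUFAF4 (1.23), TMEM126B (1.10) and NDUFAF8 (0.96). In 22Rv1 with Dox, 3 were called higher and 2 lower, led by NDUFAF7 (2.10) and NUBPL (1.69), which delivers iron-sulphur clusters to complex I. In the knockdown 1 was called higher (NDUFAF3, 0.59) and 1 lower (TMEM126B, -0.70). Of 33 assembly factors of complexes II to V, 10 were called higher and 2 lower in LNCaP with Dox, led by COX14 (0.95), COX16 (0.91) and SCO1 (0.84), a copper chaperone of complex IV. In the knockdown 3 were called higher and 8 lower, led by COX20 (-1.37) and UQCC3 (-1.19), and in 22Rv1 with Dox 3 were called each way, no larger a share than among all genes, among them COX19 (1.27) and COA3 (-1.06).

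Among 17 citrate cycle and pyruvate entry genes, 3 were called higher and 5 lower in LNCaP with Dox, with SUCLA2 at 1.15 and PDHA1, which starts the oxidation of pyruvate, at -0.73. In 22Rv1 with Dox 1 was called higher (PDHX, 0.70) and 0 lower, and in the knockdown 0 higher and 2 lower (MPC2 at -0.74 and SUCLG2 at -0.58). Of 17 electron carrier and coenzyme Q genes, 4 were called higher and 1 lower in LNCaP with Dox, led by COQ5 (0.82) and ETFA (0.77), with the cytochrome c gene CYCS at 0.57. There were 0 higher and 1 lower in 22Rv1 with Dox (COQ6, -0.51), and 4 higher and 3 lower in the knockdown, led by ETFB (0.61). Of 9 carriers of ATP, ADP and phosphate, 1 was called higher and 2 lower in LNCaP with Dox, 0 and 2 in 22Rv1 with Dox, and 2 and 0 in the knockdown. The phosphate carrier SLC25A3, which feeds complex V, changed by -0.53, -0.50 and 0.55 in these comparisons, each a call.

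Of 24 regulators of mitochondrial gene expression, 7 were called higher and 3 lower in LNCaP with Dox, led by the mitochondrial transcription factors TEFM (1.39), MTERF1 (1.11) and TFB2M (1.00). In 22Rv1 with Dox 0 were called higher and 3 lower, and in the knockdown 0 higher and 4 lower. PPARGC1A, the coactivator of the subunit genes, was called lower in all 3, at 4.74 ± 0.20 in LNCaP with Dox and 5.35 ± 0.15 without, at 4.63 ± 0.18 in 22Rv1 with Dox and 5.83 ± 0.07 without, and at 4.53 ± 0.21 in M4 shGal4 and 6.67 ± 0.20 in M4 scramble (SD, n = 3 each). It was detected on 1 of 3 arrays in LNCaP Dox, 22Rv1 Dox and M4 shGal4. TFAM, which packs and transcribes mitochondrial DNA, changed by 0.42 in LNCaP with Dox and by -0.69 in the knockdown, both calls. ESRRA rose by 0.40 in LNCaP with Dox and was not called in the others (0.27 and 0.04).

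Of 12 genes tied to hypoxic switches of respiration, 1 was called higher and 5 lower in LNCaP with Dox, 6 higher and 1 lower in 22Rv1 with Dox, and 0 higher and 3 lower in the knockdown. COXFA4L2 (formerly NDUFA4L2), left out of the subunit set, changed by -1.46 in LNCaP with Dox and by 1.35 in 22Rv1 with Dox. BNIP3, a mitophagy receptor, changed by 1.84 in 22Rv1 with Dox and by -1.14 in the knockdown. HIGD1A, which binds complexes III and IV, rose by 1.30 in LNCaP with Dox. The subunit gene NDUFA4, named COXFA4 in the files and so outside the rule, rose by 0.45 in LNCaP with Dox (limma adjusted p = 0.0217).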

How the data were processed

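Total RNA of 18 samples in 6 groups of 3 was labelled as biotin cRNA with the Ambion MessageAmp kit and hybridised to Illumina bead arrays, per the labels' protocols. The deposited table holds probe intensity on a linear scale and a detection p-value for each of 47303 probes per array, while the sources used here give no scanner settings. A value table the authors deposited is on a log2 scale, is quantile-normalized as its values show, and differed by over 0.01 from quantile-normalized log2 intensities in 114 of 851454 values. It served as an alternative.

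Intensities were background-corrected by normexp from the detection p-values (offset 16), quantile-normalized and taken to log2 (neqc, limma 3.58.1, run in R 4.3.3 with statmod 1.5.0). A probe was kept with detection p under 0.05 on at least 3 arrays, and the brightest probe stood for its gene. GEO's platform annotation gave 1 symbol for 30103 probes, several for 8 and none for 17192. A mean was fitted for each of the 6 groups (12 residual degrees of freedom), contrasts were tested with eBayes, and p-values were adjusted by Benjamini-Hochberg over 13680 genes. With bead arrays the precision is limited by how many arrays each group has. Scan batches were not tested, as no labels or headers used here give them.

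The members and lists were chosen with earlier results of these data known. Every member could be named. Full values went to the called members with the largest changes in each direction, isoform pairs, members called in 3 or more comparisons, and genes whose probes disagree. Of the other lists, up to 4 called genes per comparison were named, and certain regulators whether called or not. SDHB and the mitochondrially encoded subunits are not analysed here. Alternatives were median scaling, no background correction, the deposited values, other detection filters, other ways to join probes, a replicate block, the compared arrays alone, array weights, covariates from the within-group axis and leaving out each array.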

Additional observations from a re-analysis of the deposited data

Results flagged for a closer look

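For 11 subunit genes the Dox response differed between the lines by the test of the difference itself (22Rv1 change minus LNCaP change, limma, adjusted over all genes). The arrays labelled 22Rv1 Dox showed no rise of LGALS4, and the part this has in the differences was not tested. ATP5F1E differed by -1.46 (adjusted p = 0.0199), NDUFC2 by -0.99 (adjusted p = 0.0499), NDUFS4 by -0.98 (adjusted p = 0.0282), COX7A2L by -0.92 (adjusted p = 0.00111) and NDUFB2 by -0.86 (adjusted p = 0.0219). In these genes the 22Rv1 and LNCaP changes were -0.33 and 1.13, -0.41 and 0.58, 0.13 and 1.12, -0.21 and 0.70, and -0.16 and 0.70. None of the 22Rv1 changes was called, and of the LNCaP changes that of NDUFC2 was not. NDUFC2 was dim, with LNCaP intensities of 133.3 to 164.3, where the lowest intensity on an array ran from 83.7 to 90.9. Its call in the difference was lost without any 1 of the 22Rv1 no Dox arrays, among others.

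NDUFB1 differed by -0.75 (adjusted p = 0.0289), NDUFS5 by -0.71 (adjusted p = 0.0324), COX6A1 by -0.69 (adjusted p = 0.0182), COX5B by -0.66 (adjusted p = 0.0223), UQCRH by -0.66 (adjusted p = 0.0126) and COX6B1 by -0.62 (adjusted p = 0.0347). For NDUFB1 neither line's own change was called (-0.39 in 22Rv1 and 0.36 in LNCaP). This gene was dim too, with LNCaP intensities of 122.3 to 141.7, and its call was lost without any of several single arrays. For COX6B1 the difference came with a fall of -0.71 in 22Rv1 beside -0.09 in LNCaP. Without the third 22Rv1 Dox array, which stands apart, 4 members were called lower in the difference, and without the second 22Rv1 Dox array 23 were. With median scaling 4 members were called lower, and with arrays scaled to the median of detected probes 1 was called lower and 1 higher.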

How the results depend on the processing

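The 468 gene and contrast values were recomputed under each alternative. This gave 8093 values of the same sign and call, and 410 that changed sign and were called in neither fit. A further 527 lost a call, 320 gained one, and 4 changed sign with a call in only 1 of the fits. Counts are of members called higher or lower, and the cause of a change was not tested. Shares over all genes moved as well. In 22Rv1 with Dox, 18% of all genes were called higher and 30.1% lower with weights, and 11.6% and 19.4% without Dox replicate 3. With the residual axis, 16.8% and 13.3% were called in the knockdown, and 12.4% and 12.9% in the difference between lines. That axis was taken from what remains after the group means, so as a covariate it leaves every change as it was. It alters only the spread behind the p-values, so calls kept or gained under it are no separate support. With the array score, 1.24% and 0.541% were called in LNCaP with Dox. 22Rv1 Dox, 3 higher: 1 with only the arrays compared, 10 with array weights, 8 with the residual axis as a covariate, and 1 to 10 with an array left out; 9 lower: 5 with median scaling, 1 with scaling over detected probes, 25 with weights, and 5 to 15 with an array left out. LNCaP Dox, 28 higher: 1 with the array score as a covariate, and 20 to 24 with an array left out; 11 lower: 5 with median scaling, 6 over detected probes, 19 with weights, 0 with the score, and 5 to 10 with an array left out. Knockdown, 4 higher: 0 with median scaling, 9 without background correction and with the deposited values, 2 over detected probes, 1 with only the arrays compared, 10 with weights, 9 with the residual axis, and 3 to 6 with an array left out. Knockdown, 8 lower: 5 over detected probes, 4 with only the arrays compared, 14 with weights, 21 with the residual axis, 5 with the score, and 3 to 8 with an array left out. Difference between lines, 0 higher: 1 over detected probes, with weights and with the residual axis. The 11 lower became 4 with median scaling, 1 over detected probes, 21 with weights, 24 with the residual axis, and 4 to 23 with an array left out. M4 scramble against 22Rv1, 26 higher: 45 over detected probes, 3 with the score, and 12 to 23 with an array left out. The 8 lower became 2 with median scaling, 3 over detected probes, 3 with the score, and 3 to 7 with an array left out. LNCaP against 22Rv1, 8 higher: 14 with weights, and 5 to 7 with an array left out. The 24 lower became 11 over detected probes, and 17 to 24 with an array left out.

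With the array score as a covariate NDUFA6 turned to -0.017 in LNCaP with Dox (limma adjusted p = 0.969). In M4 scramble against 22Rv1, ATP5MJ turned to -0.067 (0.806), NDUFB6 to -0.013 (0.968) and NDUFS4 to -0.49 (0.0243). Of these values, those of NDUFA6, ATP5MJ and NDUFB6 were called in the main fit alone, and that of NDUFS4 only with the score. The scaling over detected probes and the array score were chosen after seeing the data. Under the first, the median change of all genes was 0.11 in LNCaP against 22Rv1 (-0.02 by quantiles) and 0.06 in M4 scramble against 22Rv1 (-0.05 by quantiles).

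Mean levels by complex moved most with scaling. With median scaling the knockdown changes were -0.15 for complex I and 0.083 for complex II, and 22Rv1 Dox gave 0.089 for complex IV and 0.030 for complex V, turned from -0.04 and -0.07. LNCaP Dox gave 0.38 for complex IV, and M4 scramble against 22Rv1 gave 0.39, 0.011, 0.36, 0.57 and 0.44 for complexes I to V. Without background correction and with the deposited values, complex IV gave 0.23 in M4 scramble against 22Rv1 and -0.10 in LNCaP against 22Rv1. Over detected probes, complexes I, III, IV and V gave 0.061, 0.15, 0.24 and 0.18 in 22Rv1 with Dox, 0.21, 0.33, 0.46 and 0.39 in LNCaP with Dox, and 0.039, 0.0094, 0.18 and 0.022 in LNCaP against 22Rv1. There M4 scramble against 22Rv1 gave 0.46, 0.10, 0.43, 0.63 and 0.50 for complexes I to V.

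Whether the replicate numbers pair the arrays cannot be told from 3 arrays a group. Correlations of same-numbered arrays ran from -0.11 to 0.11. In LNCaP against 22Rv1, 3 LNCaP arrays correlated best with their own number (0.0084, 0.075 and 0.032), and in the other comparisons 0 or 1 array did. The replicate block gave 3 higher and 8 lower in 22Rv1 with Dox, 26 and 10 in LNCaP with Dox, and 4 and 8 in the knockdown. It gave 0 and 10 in the difference, 24 and 7 in M4 scramble against 22Rv1, and 8 and 24 in LNCaP against 22Rv1. With 3 arrays a group, a probe near background for COX6B2 and dim ones for NDUFC2 and NDUFB1, small changes are not resolved.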
